A study of Mus musculus with 46 samples.

Results

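The STAT and IRF transcription factors described here are Stat2, Stat3, Irf9, Irf1, Irf2, Irf5 and Irf7. They were taken by gene symbol, 1 row each, from the 24537 genes of each of the 8 deposited gene tables, so that 7 of 24537 genes were followed through 42 mouse RNA-seq libraries. All 7 were found in each table and all 7 passed the filters on low values.

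Interferons bind receptors whose JAK kinases phosphorylate STAT proteins. Type I interferon leads to ISGF3, a complex of which Stat2 and Irf9 are parts, which binds the interferon-stimulated response element (ISRE) of its target genes. Interferon-gamma (IFNγ) leads to a STAT dimer that binds the gamma-activated site (GAS), and the gene of Irf1, itself an activator, is a classic target of that dimer. Irf7 is induced by interferon and, once phosphorylated downstream of nucleic acid sensing, such as that by cGAS through Sting, drives further type I interferon genes. Irf2 competes with Irf1 for shared sites, Irf5 acts downstream of Toll-like receptors in myeloid cells, and Stat3 carries signals of the interleukin-6 family.

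The study asked how loss of Arid1a, a SWI/SNF subunit that helps this chromatin remodeller bind DNA, bears on Sting and type I interferon signalling. The 42 libraries formed 21 groups of 2. B16F10 mouse melanoma cells carried a control guide RNA (sgScramble) or a guide against Arid1a (sgArid1a), and were sampled as subcutaneous tumors on day 15, which hold host cells, or in culture. The cultures were untreated, given PBS or murine IFN gamma for 24 h (no time is given for PBS), or given DMSO for 72 h. sgArid1a cultures were also given anti-IFNAR (an antibody that blocks the receptor of type I interferon) for 72 h or the JAK1 and JAK2 inhibitor ruxolitinib for 72 h. Untreated cells labelled sgArid1a/sgCgas and sgArid1a/sgSting carried a further guide; their titles name B16F10 and their cell line field B16F11 to B16F14, and they were taken as B16F10. In a further experiment sgScramble cells received DMSO, a compound with the code name BD98, or BD98 with anti-IFNAR, for 72 h. MC38 colon cancer cells carried sgScramble or sgArid1a and were untreated. Mouse embryonic fibroblasts (MEFs) with floxed Arid1a (Arid1a fl/fl) were given ethanol (WT) or tamoxifen (Arid1a -/-) and taken on day 5, so the effect of tamoxifen itself and that of the deletion cannot be told apart. The labels do not say whether a guide line was a clone or a pool, nor how many mice or embryos were used, and nothing says that the 2 libraries of a group came from separate cultures or animals. The p-values then measure only the spread between these libraries, which may be technical.

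Motifs in the promoters of the 7 factors are shown because several of the factors moved with interferon signalling. All 7 had an entry in the RefSeq promoter table (GRCm38.p6), and Irf9 and Irf1 had more than 1 start site. The ISRE was searched on both strands as a GAAA box, any 2 bases and a further GAAA box, and the GAS as TTCNNNGAA, which reads the same on both strands. In the 250 bases upstream of each start site, the ISRE letters were found in 978 of 32851 promoters (2.98%) and the GAS letters in 2306 (7.02%). Among the 7 factors, 2 held the ISRE letters (Stat2 and Irf2) and 2 held the GAS letters (Irf1 and Irf2). The matches are printed 5′ to 3′ with up to 20 flanking bases, matches in capitals, all on the plus strand, which is the coding strand of these 3 genes.
Stat2, chr10:128270256-128270305, ISRE read on the reverse strand: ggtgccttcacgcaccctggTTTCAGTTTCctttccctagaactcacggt
Irf1, chr11:53769904-53769952, GAS: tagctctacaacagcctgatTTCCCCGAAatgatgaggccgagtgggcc
Irf2, chr8:46739495-46739549, ISRE then GAS: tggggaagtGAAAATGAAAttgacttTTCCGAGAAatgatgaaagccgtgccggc
Counted in bases from the start site, the Stat2 match began at -222, the Irf1 match at -90, and the Irf2 matches at -241 (ISRE) and -224 (GAS). In the windows of Stat3, Irf9, Irf5 and Irf7 these letters did not occur.

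In mm10 the transcripts used by the authors lie on chromosome 10 at 128270576-128292849 for Stat2 and chromosome 11 at 100886806-100939540 for Stat3. Irf9 lies on chromosome 14 at 55603985-55610030, Irf1 on chromosome 11 at 53770014-53777324 and Irf2 on chromosome 8 at 46739745-46847458. Irf5 lies on chromosome 6 at 29526625-29541869 and Irf7 on chromosome 7 at 141263183-141266424. The values count reads over exons of these transcripts.

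Depth was 8.7 to 38.8 M reads per library. Arid1a, the targeted gene, was lower with its loss in tumors (-0.32 log2), untreated cells (-0.58), MC38 cells (-0.14) and MEFs (-0.43), and called in each. In the DMSO cultures it was -0.26 with an adjusted p of 0.235. A guide can disrupt the protein without lowering the RNA, so this is a partial check. Melanocyte markers were all above the filter in the B16F10 cultures, and 7 of 9 fibroblast markers were in MEFs. Of 11 epithelial markers 0 were above the filter in MC38 cells, and Epcam, Krt19, Cldn3, Cldn4 and Cdx2 were at 0 in all 4 of those libraries. In the double-knockout table, Arid1a was 10.71 to 11.03 in the double knockouts, near the 2 sgScramble libraries (10.90 and 11.08) and above the 2 sgArid1a libraries (10.43 and 10.39). Mb21d1, which encodes cGAS, was 8.03 and 7.98 in the libraries labelled sgArid1a/sgCgas and 8.06 and 7.96 with sgArid1a. Tmem173, which encodes Sting, was 9.04 and 8.87 in those labelled sgArid1a/sgSting and 9.47 and 9.51 with sgArid1a. In the IFNγ table, Arid1a was at most 12.15 in the 4 libraries labelled IFN gamma and at least 12.25 in the 4 labelled PBS, whichever guide the label named. Results of these 2 tables are therefore given by label.

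With Arid1a loss, Irf9 and Irf1 rose in all 5 experiments (tumors, untreated and DMSO-treated B16F10 cells, MC38 cells and MEFs), Irf7 in 4 and Stat2 in 3. Stat3 and Irf5 were called in tumors and in 0 of the 4 cultured experiments, a difference that was not tested. In tumors 6 of 7 factors were called higher against 26.0% of the 13895 genes tested, and 0 lower against 28.1%. Irf2 was not called in any of the 5. In cultures 3 of 7 were called higher without treatment, against 5.84% of 11604 genes, and 2 of 7 in DMSO, against 3.5% of 11783 genes. In MC38 cells it was 4 of 7 against 8.33% of 11516 genes and in MEFs 4 of 7 against 4.69% of 12184 genes. In those 4 comparisons 0 of 7 were called lower, where 5.98% of genes were untreated, 4.38% in DMSO, 12.9% in MC38 cells and 5.01% in MEFs (1403, 1424, 2086 and 1678 genes were lower at an unadjusted p under 0.05 in limma, and 4303 in tumors). When values were centred on each library's median, the share of calls that were higher went from 39.3% to 52.4% in MC38 cells and from 48.4% to 59.5% in MEFs, while the members called did not change. The median difference of the 7 was 0.51 in tumors, 0.28 untreated, 0.25 in DMSO, 0.10 in MC38 cells and 0.27 in MEFs, against -0.02 to 0.01 over all genes tested. The tables were normalized separately, so these sizes do not rank the experiments. Irf9 differed by 0.45 in MC38 cells and 0.51 in tumors in limma. In the authors' deposited fold changes it differed by 1.40 log2 in MC38 cells and 0.60 in tumors. Values are the authors' normalized log2 values, in which low counts are drawn together, and tests are limma on all groups of a table with Benjamini-Hochberg adjustment, called at an adjusted p under 0.05.

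**Figure D1:**
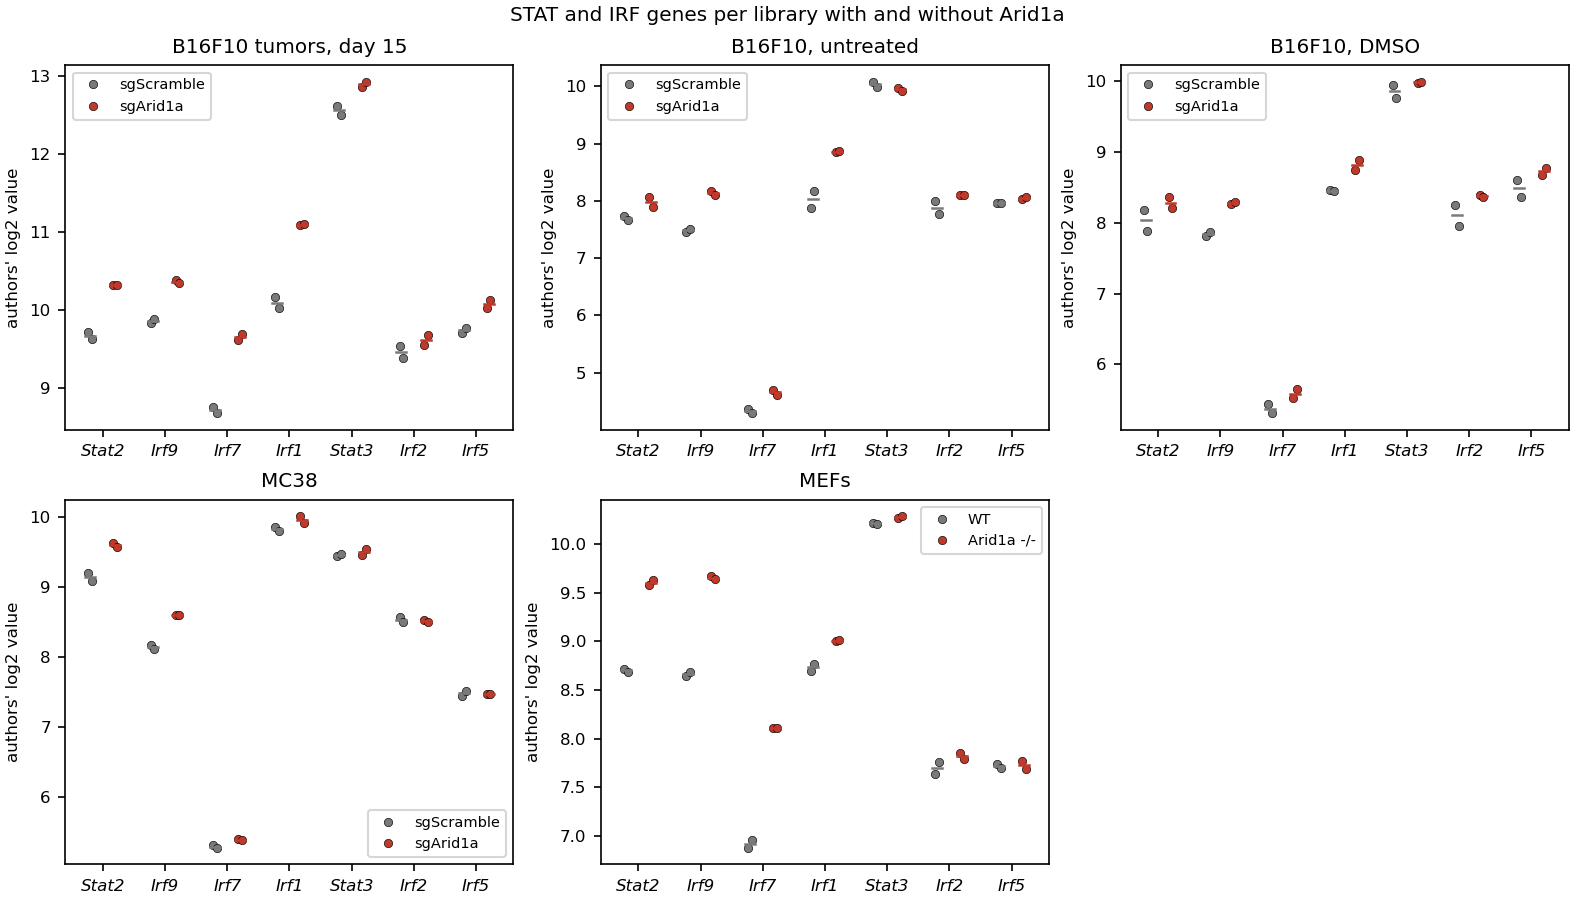
Authors' log2 value (y axis) of the 7 factors in each library of the 5 experiments with and without Arid1a; points are libraries, short lines are means of 2, and panels have separate scales because the tables were normalized separately. Irf9, Irf1, Irf7 and Stat2 sit higher without Arid1a in every panel with no overlap.

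Irf9, the DNA-binding part of ISGF3, was 9.84 and 9.89 in sgScramble tumors and 10.39 and 10.35 in sgArid1a tumors. In untreated cells sgScramble libraries stood at 7.46 and 7.51 and sgArid1a libraries at 8.17 and 8.11. In MEFs it was 8.64 and 8.69 in WT and 9.67 and 9.64 without Arid1a. In each case both libraries without Arid1a lay above both controls, far outside the spread within a group. The difference was 0.99 ± 0.05 (standard error, n = 2 per group, adjusted p = 9.8e-07) in MEFs, 0.66 ± 0.11 (adjusted p = 0.00202) in untreated cells and 0.51 ± 0.06 (adjusted p = 3.73e-05) in tumors. In MC38 cells Irf9 was 8.18 and 8.12 against 8.61 and 8.60, a difference of 0.45 ± 0.03 (adjusted p = 2.93e-14). In DMSO it was 7.81 and 7.87 against 8.26 and 8.29, a difference of 0.43 ± 0.08 (adjusted p = 0.00433). The DMSO groups did not overlap, but the call was lost without either of the sgArid1a libraries (adjusted p from 0.0618 to 0.0786). The authors' deposited table gives wider differences for Irf9, of 1.88 log2 in MEFs (adjusted p = 8.83e-35), 1.40 in MC38 cells (2.03e-18), 0.89 untreated (0.000216), 0.82 in DMSO (0.000994) and 0.60 in tumors (3.9e-08).

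Stat2, the partner of Irf9 in ISGF3 that carries its activation domain, was 9.72 and 9.63 in sgScramble tumors and 10.32 in both sgArid1a tumors. In MEFs it was 8.72 and 8.69 against 9.58 and 9.63, and in MC38 cells 9.20 and 9.09 against 9.63 and 9.58. All 3 pairs of groups were apart by more than the spread within them. The differences were 0.65 ± 0.07 in tumors (adjusted p = 6.7e-06), 0.90 ± 0.05 in MEFs (adjusted p = 1.87e-06) and 0.46 ± 0.03 in MC38 cells (adjusted p = 2.25e-12). In untreated cells Stat2 was 7.73 and 7.66 against 8.06 and 7.89, and in DMSO 8.18 and 7.89 against 8.36 and 8.21. These groups did not overlap either, but the differences of 0.28 ± 0.12 (adjusted p = 0.148) and 0.25 ± 0.10 (adjusted p = 0.15) did not pass the test. Without the first sgScramble DMSO library Stat2 was called in DMSO (adjusted p = 0.00577), and so were the other 6 factors, among them Stat3 (0.031), Irf2 (0.00246), Irf5 (0.00571) and Irf7 (0.0166), which were not called with all libraries. In the authors' deposited table Stat2 was higher by 1.70 log2 in MEFs (adjusted p = 1.32e-27), 0.94 in MC38 cells (1.8e-14) and 0.76 in tumors (8.27e-12), and by 0.39 untreated (0.436) and 0.47 in DMSO (0.216).

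Irf7, the interferon-inducible activator of type I interferon genes, was 8.76 and 8.68 in sgScramble tumors and 9.62 and 9.70 in sgArid1a tumors, a difference of 0.94 ± 0.07 (adjusted p = 5.21e-07). In MEFs it was 6.88 and 6.96 in WT and 8.11 in both Arid1a -/- libraries, a difference of 1.19 ± 0.05 (adjusted p = 1.18e-07) and the seventh smallest p of the 12184 genes. The groups were far apart in both. In the cultured cancer lines Irf7 had the lowest value of the 7 factors: untreated 4.36 and 4.29 against 4.70 and 4.61 with sgArid1a, in DMSO 5.44 and 5.31 against 5.52 and 5.65, and in MC38 cells 5.31 and 5.28 against 5.40 and 5.39. The groups again did not overlap. The differences were 0.33 ± 0.09 (adjusted p = 0.0341) untreated, 0.21 ± 0.07 (adjusted p = 0.08) in DMSO and 0.10 ± 0.01 (adjusted p = 8.33e-07) in MC38 cells. The untreated call was lost without any 1 of the 4 libraries (adjusted p from 0.0517 to 0.214). Low values are drawn together on this scale. In the authors' deposited table of fold changes, Irf7 was higher by 1.26 log2 untreated (adjusted p = 0.0448), 0.97 in DMSO (0.0441), 2.00 in MC38 cells (0.000795), 1.18 in tumors (5.4e-19) and 4.13 in MEFs (2.11e-49).

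Irf1, an activator that binds ISRE-like sites and whose own gene is a target of the GAS-binding dimer, was 10.17 and 10.03 in sgScramble tumors and 11.09 and 11.11 in sgArid1a tumors. In untreated cells it was 7.88 and 8.18 against 8.85 and 8.87. On this scale these 2 differences were the largest of the 7 factors in their experiments, at 1.0 ± 0.07 (2.01-fold, adjusted p = 1.82e-07) and 0.84 ± 0.12 (adjusted p = 0.000553). In the authors' deposited table Irf1 was higher by 1.14 and 1.04 log2 there, and Irf7 by more in both. In DMSO Irf1 was 8.46 and 8.45 against 8.75 and 8.88, a difference of 0.36 ± 0.08 (adjusted p = 0.0195). In MEFs it was 8.70 and 8.77 against 9.0 and 9.02, a difference of 0.27 ± 0.05 (adjusted p = 0.00924). In MC38 cells it was 9.86 and 9.81 against 10.02 and 9.92, a difference of 0.14 ± 0.03 (adjusted p = 0.00204). No groups overlapped, but the DMSO call was lost without either sgArid1a library (adjusted p from 0.0877 to 0.246) and the MC38 call without the first sgArid1a library (0.09, adjusted p = 0.192). In the authors' deposited table the MC38 change in Irf1 was 0.25 log2 with an adjusted p of 0.0917.

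Irf2, which competes with Irf1, was 9.54 and 9.39 against 9.55 and 9.69 in tumors and 7.99 and 7.78 against 8.11 and 8.10 in untreated cells. The sgArid1a libraries lay just above the controls in both, by 0.15 ± 0.08 (adjusted p = 0.117) and 0.22 ± 0.11 (adjusted p = 0.235). In DMSO, MEFs and MC38 cells the differences were 0.28, 0.12 and -0.02, with adjusted p of 0.0942, 0.211 and 0.699. Without the first sgScramble tumor, Irf2 was called in tumors (0.23, adjusted p = 0.0278). Irf5, which acts in myeloid cells, was 9.71 and 9.78 against 10.03 and 10.13 in tumors, a difference of 0.33 ± 0.07 (adjusted p = 0.00142). In cultured cells its differences were 0.09 untreated, 0.25 in DMSO, -0.01 in MC38 cells and 0.01 in MEFs, with adjusted p from 0.121 to 0.939. In MC38 cells and MEFs the 95% interval of the Irf5 difference ran from -0.06 to 0.04 and from -0.10 to 0.12.

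Stat3, the interleukin-6 family transducer, was 12.62 and 12.51 in sgScramble tumors and 12.87 and 12.93 in sgArid1a tumors, a difference of 0.34 ± 0.06 (adjusted p = 0.000547). In untreated cells it was 10.08 and 9.99 against 9.98 and 9.92, so both sgArid1a libraries lay below both controls. That difference, -0.08 ± 0.09, did not pass the test (adjusted p = 0.6). In DMSO, MC38 cells and MEFs Stat3 differed by 0.13, 0.05 and 0.06, with adjusted p of 0.397, 0.341 and 0.51. Whether the change in tumors differs from that in culture was not tested, since the tables were normalized separately.

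**Figure D2:**
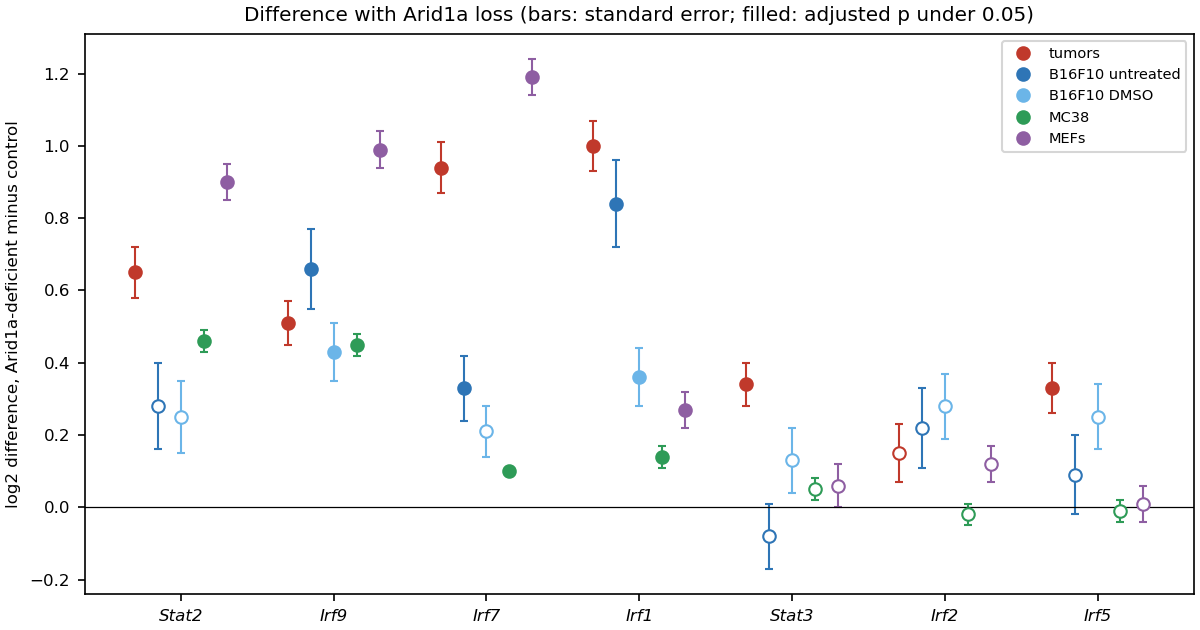
Log2 difference, Arid1a-deficient minus control (y axis), for each factor in 5 experiments; bars are standard errors from limma and filled points have an adjusted p under 0.05. Irf9 and Irf1 are filled in all 5 experiments, and Irf2 in 0 of them.

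Tumors also differed in the RNA of cell type markers. The 15 macrophage markers were all measured in tumors; 13 were called higher and 0 lower with sgArid1a, with summed log2 levels of 14.21 to 14.25 in sgScramble tumors and 15.08 to 15.11 in sgArid1a tumors. Dendritic cell markers moved the same way (6 of 8 tested higher, 9.18 to 9.22 against 9.60 to 9.67), as did 5 of 5 tested T cell markers (8.49 to 8.56 against 8.83 to 8.88) and 8 of 8 skeletal muscle markers (10.65 to 10.72 against 13.52 to 13.53). Melanocyte markers were lower (6 of 10 lower and 1 higher, 19.74 to 19.77 against 19.30 to 19.32). The part of these markers' cells in the 6 calls in tumors was not tested, and more cells of a type and more RNA per cell cannot be told apart in bulk tumors. In the untreated B16F10 cultures 1 of 15 macrophage markers passed the filter and C1qb, C1qc, Fcgr1, Itgam and Cx3cr1 were at 0, and there Irf9, Irf1 and Irf7 were called.

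Genes that these factors act on or beside were counted from lists. Of 32 ISRE-type interferon targets, 31 of 32 tested rose in tumors (median 0.93, against -0.02 over all genes), 21 of 26 untreated (0.60), 18 of 27 in DMSO (0.30), 30 of 31 in MC38 cells (0.36) and 27 of 28 in MEFs (0.88), and 0 fell in any of these. Parp14, an ADP-ribosyltransferase, rose by 1.47 in tumors, 0.96 untreated and 0.58 in DMSO. Isg15, a ubiquitin-like modifier, rose by 2.04 in MEFs. Of 27 GAS and Irf1 type targets, 26 of 27 tested rose in tumors (median 1.45), 11 of 20 untreated (0.56), 8 of 21 in DMSO (0.27), 16 of 23 in MC38 cells (0.19) and 22 of 23 in MEFs (0.36), and 1 fell in untreated cells and 1 in MC38 cells. Cxcl9, a chemokine for T cells, rose by 2.43 in tumors, and Irgm1, an interferon-induced GTPase, by 0.99 untreated and 0.45 in MC38 cells. The medians of the 2 lists stood in opposite order in tumors and in MEFs, which was not tested.

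The 20 Stat3 targets showed no common direction: 8 rose and 8 fell in tumors (median -0.01), 0 rose and 3 fell untreated (of 15 tested, -0.07), and 2 rose and 1 fell in MEFs (of 17, 0.01). The 3 that fell in untreated cells were Cebpb, a bZIP factor (-1.56, adjusted p = 4.25e-06), Vegfa, the angiogenic growth factor (-0.92, adjusted p = 6.75e-05), and Bcl6, a repressor (-0.54, adjusted p = 0.00886). The counts that follow stand beside 26.0% of all genes higher and 28.1% lower in tumors and 5.84% higher untreated, so that 1 gene of 10 or 12 untreated is near the share over all genes. Of 12 receptors and kinases upstream of STATs, 6 rose and 1 fell in tumors and 1 rose untreated, Il6ra, a receptor subunit for interleukin-6 (0.51, adjusted p = 0.0201). Of 12 receptors, kinases and adaptors upstream of Irf7, 6 rose and 1 fell in tumors. Among those that rose were the endosomal sensors Tlr7 (0.86) and Tlr9 (0.50). In untreated cells 1 of 10 tested rose, Ticam1, an adaptor of Tlr3 (0.65). Of 13 inhibitors of STAT signalling, Usp18, which blocks the type I interferon receptor and is itself an ISRE-type target, rose in all 5 experiments, by 1.41 in tumors, 0.73 untreated, 0.48 in DMSO, 0.61 in MC38 cells and 1.97 in MEFs. Counts for the other inhibitors are not reported here, so Usp18 does not stand for that list. Of the other 9 STAT and IRF genes counted, 4 rose and 2 fell in tumors, 1 of 5 tested rose untreated, in MC38 cells and in MEFs, and 1 rose and 1 fell of 7 in DMSO.

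Per kilobase of transcript, Stat3 had the highest level in sgScramble tumors (10.41 log2 per kb), followed by Irf1 (9.01), Irf5 (8.93), Irf9 (8.52), Irf2 (8.16), Irf7 (7.83) and Stat2 (7.55). Irf1 and Irf5 overlapped in range and no other neighbours did. In sgArid1a tumors Irf7 (8.77) stood above Irf2 (8.31), and Irf1 (10.02) no longer overlapped Irf5 (9.26). In untreated sgScramble cells the order was Stat3 (7.87), Irf5 (7.15), Irf1 (6.94), Irf2 (6.58), Irf9 (6.14), Stat2 (5.57) and Irf7 (3.44), with no overlap between neighbours. With sgArid1a, Irf1 and Stat3 were both at a mean of 7.78 with overlapping ranges, and Irf9 and Irf2 both at 6.80. In MC38 cells Irf1 led (8.74 with sgScramble) and Irf7 was last (4.49). In MEFs Irf9 moved from the third place in WT (7.32, below Stat3 at 8.05 and Irf1 at 7.65) to the first without Arid1a (8.31, above Stat3 at 8.11), with no overlap.

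The double knockouts asked whether cGAS or Sting is needed for the change with sgArid1a. In limma Arid1a itself was higher than in sgArid1a, by 0.47 with sgArid1a/sgCgas (adjusted p = 0.00596) and 0.36 with sgArid1a/sgSting (0.0238). Against sgScramble it was not called (-0.11 and -0.22). Mb21d1 did not differ between sgArid1a/sgCgas and sgArid1a (0.0, adjusted p = 0.989). Loss of the second gene and higher Arid1a thus cannot be told apart below. Against sgArid1a, the libraries labelled sgArid1a/sgCgas had lower Irf9, Irf1 and Irf7 (3 of 7 lower against 16.5% of genes, 0 higher against 12.2%). Those labelled sgArid1a/sgSting had lower Irf9 (1 of 7 against 17.9%) and higher Irf5 (1 of 7 against 13.9%). Both counts of 1 of 7 are near the share over all genes. Centring each library moved the share of calls that were higher from 43.7% to 54.8% in the Sting comparison. Of the 26 tested ISRE-type targets, 16 fell and 0 rose with sgArid1a/sgCgas, and 13 fell and 1 rose with sgArid1a/sgSting.

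Irf9 was 7.77 and 7.70 with sgArid1a/sgCgas and 7.66 and 7.82 with sgArid1a/sgSting, between sgArid1a (8.17 and 8.11) and sgScramble (7.46 and 7.51), with no overlap. It was lower than sgArid1a by the same 0.40 ± 0.11 in both (adjusted p = 0.0149 and 0.0147). Irf1 was 8.47 and 8.55 with sgArid1a/sgCgas and 8.57 and 8.61 with sgArid1a/sgSting, also between sgArid1a (8.85 and 8.87) and sgScramble (7.88 and 8.18). It differed from sgArid1a by -0.35 ± 0.12 (adjusted p = 0.0388) and -0.28 ± 0.12 (adjusted p = 0.0873), and remained higher than sgScramble by 0.48 (adjusted p = 0.00495) and 0.56 (adjusted p = 0.00193). Irf7 was 4.41 and 4.27 with sgArid1a/sgCgas, overlapping sgScramble (4.36 and 4.29), and 4.44 and 4.46 with sgArid1a/sgSting, against 4.70 and 4.61 with sgArid1a. The differences were -0.32 ± 0.09 (adjusted p = 0.0213) and -0.20 ± 0.09 (adjusted p = 0.113), and in the authors' deposited table -1.11 (0.00844) and -0.66 log2 (0.226). Whether the Cgas and Sting knockouts differ from each other was not tested here. The authors' deposited table holds that comparison, and no factor there had an adjusted p under 0.05. With sgArid1a/sgSting relative to sgArid1a/sgCgas, Irf7 differed by 0.45 log2, Irf5 by 0.26 (adjusted p = 0.735) and Irf2 by 0.22 (0.876). Irf1 differed by 0.09, Irf9 by 0.01, Stat2 by -0.10 and Stat3 by -0.06.

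Stat2 did not share this pattern: it was 8.15 and 7.97 with sgArid1a/sgCgas and 7.95 and 8.04 with sgArid1a/sgSting, overlapping sgArid1a (8.06 and 7.89). The intervals of the differences were -0.16 to 0.34 and -0.23 to 0.27. Irf5 was 8.50 and 8.30 with sgArid1a/sgSting against 8.04 and 8.07 with sgArid1a, a difference of 0.35 ± 0.11 (adjusted p = 0.0282). Against sgScramble, 2 of 7 factors (Stat2 and Irf1) were higher with sgArid1a/sgCgas, against 19.7% of genes (0 lower against 21.9%), and 3 of 7 (Irf1, Irf2 and Irf5) with sgArid1a/sgSting, against 20.2% (0 lower against 22.1%). The count of 2 of 7 is near the share over all genes. With sgArid1a/sgSting against sgScramble, centring moved the share of calls that were higher from 47.8% to 59.1%. After centring, Irf9 and Irf2 were also called against sgScramble with sgArid1a/sgCgas, and Stat2 and Irf9 with sgArid1a/sgSting. Stat3 differed from sgScramble by 0.03 and -0.01 (adjusted p = 0.79 and 0.923).

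These calls rest on few libraries. The call of Irf1 with sgArid1a/sgCgas was also lost after centring (adjusted p = 0.0583). The calls of Irf9 and Irf1 with sgArid1a/sgCgas were lost without any 1 of the 4 libraries (adjusted p from 0.0708 to 0.111 and from 0.107 to 0.234) and that of Irf7 without any but the first sgArid1a/sgCgas library (from 0.0598 to 0.167). With sgArid1a/sgSting, the calls of Irf9 and Irf5 were lost without either sgArid1a library or without 1 of the 2 Sting libraries (from 0.0631 to 0.0966 and from 0.11 to 0.164). Against sgScramble, the Stat2 call with sgArid1a/sgCgas was lost without the second sgScramble or the first sgArid1a/sgCgas library (from 0.0502 to 0.218), and with sgArid1a/sgSting the calls of Irf2 (0.0619) and Irf5 (0.0594) were each lost without 1 Sting library.

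Anti-IFNAR in sgArid1a cells asked how much of the pattern runs through the type I interferon receptor. The cells compared were untreated, with no time given, and the labels name no control antibody. Blockade of the receptor thus cannot be told apart from the 72 h of treatment or the presence of an antibody. A gene not called here is not shown to be unchanged. Irf9 fell and the other 6 factors were not called, 1 of 7 lower against 0.0171% of the 11686 genes tested, which is 2 genes. The other gene was Ifi27, an interferon-inducible gene (-0.94 ± 0.08, adjusted p = 0.00455). No gene was called higher (0.0%), and 39 genes were higher and 111 lower at an unadjusted p under 0.05 in limma. Irf9 was 7.41 and 7.47 with the antibody, below sgArid1a (8.06 and 8.02) and below sgScramble (7.58 and 7.62) in the same table. The difference from sgArid1a was -0.60 ± 0.07 (adjusted p = 0.0227) and that from sgScramble -0.16 ± 0.07 (adjusted p = 0.147). The Irf9 call was lost without any 1 of the 4 libraries (adjusted p from 0.29 to 0.45), with the difference staying between -0.63 and -0.57. In the authors' deposited table Irf9 was lower by 1.26 log2 (adjusted p = 1.09e-15).

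Irf1 was 8.90 and 8.88 with anti-IFNAR, against 8.92 and 8.93 with sgArid1a and 8.26 and 8.44 with sgScramble. It thus stood near the sgArid1a level, with an interval of the difference from -0.21 to 0.13, and was the 1 of 7 factors called higher than sgScramble (0.54 ± 0.08, adjusted p = 0.00209, against 6.12% of genes, while 0 were lower, against 6.61%, with 1681 genes lower at an unadjusted p under 0.05 in limma). A count of 1 of 7 higher is near the share over all genes. Irf7 was 4.55 in both antibody libraries, below 4.70 and 4.66 with sgArid1a and next to 4.55 and 4.52 with sgScramble. Its difference from sgArid1a was -0.13 ± 0.04 (adjusted p = 1.0), although its p was the 31st smallest, and the authors' deposited table gives -1.04 log2 (adjusted p = 0.335). Stat2 overlapped between the groups (7.96 and 7.80 against 8.06 and 7.94). Of the 26 tested ISRE-type targets, 0 were called either way and the median was -0.22, against 0.0 over all genes. This table holds the same 4 untreated libraries as the double-knockout table, and with its own normalization Irf1, Irf9 and Irf7 were again called with sgArid1a, by 0.58, 0.44 and 0.14 log2 (3 of 7 higher against 4.91% of genes, 0 lower against 5.78%, with 1507 genes lower at an unadjusted p under 0.05 in limma). The sgScramble and sgArid1a libraries are shared by the comparisons of both tables.

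Ruxolitinib in sgArid1a cells asked the same of the JAK1 and JAK2 kinases. Irf9 fell and no other of the 7 factors was called, 1 of 7 lower against 0.195% of 11783 genes and 0 higher against 0.0255%. Irf9 was 7.50 and 7.57, below DMSO-treated sgArid1a cells (8.26 and 8.29) and below DMSO-treated sgScramble cells (7.81 and 7.87). No groups overlapped, and the differences were -0.74 ± 0.08 (adjusted p = 0.000787), the fifth smallest p, and -0.30 ± 0.08 (adjusted p = 0.0195). Against sgScramble, Irf9 was the 1 of 7 called lower, against 9.41% of genes, and 0 of 7 were higher against 6.1%, with 1699 genes higher at an unadjusted p under 0.05 in limma. A count of 1 of 7 lower is near the share over all genes. Centring moved the share of calls that were higher there from 39.3% to 54.6%. The first call was lost without the second sgArid1a DMSO library (-0.72, adjusted p = 0.0532) and the second without either ruxolitinib library (adjusted p from 0.0723 to 0.211). Without the first sgScramble DMSO library, Stat2 (0.028), Irf2 (0.0288) and Irf5 (0.00726) were called against sgScramble as well.

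Irf1 was 8.63 and 8.54 with ruxolitinib, between sgArid1a DMSO (8.75 and 8.88) and sgScramble DMSO (8.46 and 8.45) without overlap, at -0.23 ± 0.08 from the former (adjusted p = 0.471). Stat3 was 9.81 and 9.72 against 9.98 and 9.99, a difference of -0.22 ± 0.09 (adjusted p = 0.492 in limma), while the authors' deposited table gives -0.35 log2 with an adjusted p of 0.0343. Irf7 was 5.47 and 5.35 against 5.52 and 5.65, and Stat2 8.13 and 8.21 against 8.36 and 8.21. Of the 27 tested ISRE-type targets, 11 fell and 0 rose (median -0.30), led by Rtp4, a chaperone induced by interferon (-0.80), Usp18 (-0.70) and Ifit3, an antiviral effector (-0.67). Of the 21 tested GAS and Irf1 type targets, 3 fell and 0 rose. Of 3 genes called higher, Adgre1 (0.43) and Lyz2 (0.90) are macrophage markers and Saa3, an acute-phase gene (1.57), is a Stat3 target. Summed macrophage marker levels, from 5 of 15 markers above the filter, were 8.41 to 8.62 with ruxolitinib and 8.09 to 8.12 in sgArid1a DMSO, and their part in these values was not tested.

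**Figure D3:**
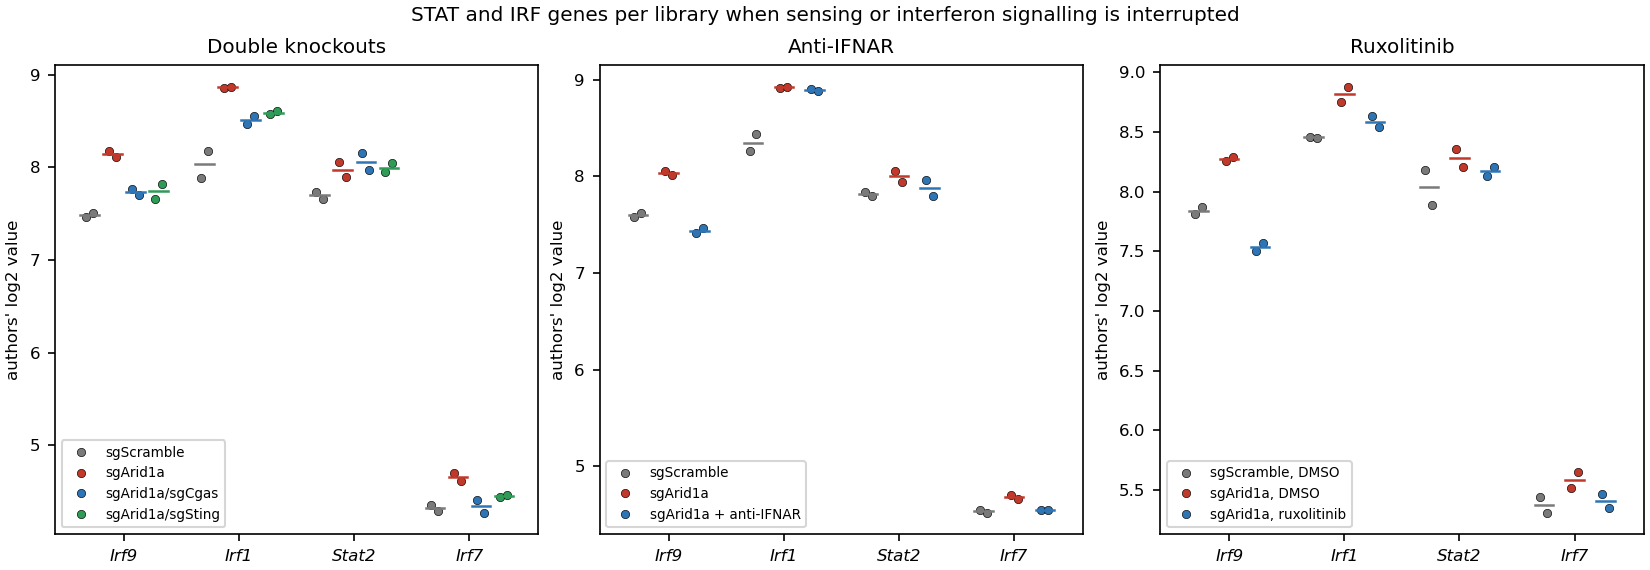
Authors' log2 value (y axis) of Irf9, Irf1, Stat2 and Irf7 in each library of the double-knockout, anti-IFNAR and ruxolitinib tables; points are libraries and lines are means of 2. Irf9 lies below its sgScramble libraries with anti-IFNAR (7.41 and 7.47) and ruxolitinib (7.50 and 7.57), and Irf1 lies near its sgArid1a libraries with anti-IFNAR (8.90 and 8.88).

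BD98 given to sgScramble cells raised Irf7, Irf9, Stat2, Irf1 and Stat3 and lowered Irf2 (5 of 7 higher against 24.5% of 12843 genes, 1 of 7 lower against 25.4%). The count of 1 of 7 lower is no more than the share over all genes. This table holds raw counts, tested with edgeR's quasi-likelihood test, and values are CPM, counts scaled to the size of the library. Irf7 had 26 and 22 counts in DMSO (1.17 and 1.55 CPM) and 157 and 188 with BD98 (11.8 and 13.1 CPM), an increase of 3.23 ± 0.24 log2 or 9.37-fold (adjusted p = 9.84e-12). Irf9 was 10.8 and 14 CPM in DMSO and 43.6 and 50.8 with BD98, an increase of 1.95 ± 0.13 (adjusted p = 1.65e-12). Stat2 was 23.3 and 18 CPM against 56.4 and 60.9, an increase of 1.49 ± 0.11 (adjusted p = 1.09e-11). The groups of these 3 parts of the type I interferon response did not overlap, and the order of the increases was Irf7, Irf9 and Stat2.

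Irf1 was 34.5 and 33 CPM in DMSO and 59.0 and 59.3 with BD98, an increase of 0.81 ± 0.09 (adjusted p = 2.28e-08). Stat3 was 120 and 122 CPM against 148 and 150, an increase of 0.30 ± 0.07 (adjusted p = 0.000981). Irf2, the competitor of Irf1, went the other way, from 24.2 and 24.5 CPM to 18.6 and 19.8 (-0.34 ± 0.12, adjusted p = 0.0179). That call was lost without either DMSO library or the first BD98 library (adjusted p from 0.0597 to 0.0841). Irf5 was 25.5 and 25.8 CPM against 24.3 and 21.8, not called (-0.15 ± 0.11, adjusted p = 0.268). The median difference of the 7 was 0.81, against 0.01 over all genes.

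Anti-IFNAR together with BD98 lowered Irf7, Irf9 and Stat2 relative to BD98 alone (3 of 7 lower against 1.39% of genes, 0 higher against 0.109%, with 539 genes higher at an unadjusted p under 0.05 in edgeR). Irf7 fell to 2.77 and 2.55 CPM (-2.23 ± 0.21, adjusted p = 2.73e-08), Irf9 to 14.5 and 17.4 (-1.56 ± 0.12, adjusted p = 1.43e-09) and Stat2 to 32.7 and 35.2 (-0.79 ± 0.10, adjusted p = 1.65e-05). All 3 lay between DMSO and BD98 alone. Irf1 was 52.4 and 49.9 CPM, a little below BD98 alone without overlap. Its difference of -0.21 ± 0.09 was not called (adjusted p = 0.28), and the interval ran from -0.39 to -0.04. Stat3 overlapped at 137 and 149 CPM. By the size of p, Irf9 stood at place 15, Irf7 at 20 and Stat2 at 35 among 12843 genes.

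With both agents, 5 of 7 factors remained above DMSO, against 23.4% of genes, and 0 were lower, against 24.8% (3525 genes were lower at an unadjusted p under 0.05 in edgeR). Irf7 was higher by 1.0 ± 0.28 (adjusted p = 0.00469), Stat2 by 0.70 ± 0.11 (8.04e-06), Irf1 by 0.59 ± 0.09 (2.88e-06), Irf9 by 0.39 ± 0.14 (0.0235) and Stat3 by 0.24 ± 0.07 (0.00715). The calls of Stat3 and Irf9 were lost without the first DMSO or the second BD98 with anti-IFNAR library (adjusted p from 0.0828 to 0.154 and from 0.274 to 0.423), and that of Irf7 without the first DMSO library (0.108). The DMSO and BD98 libraries are shared by these 3 comparisons.

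**Figure D4:**
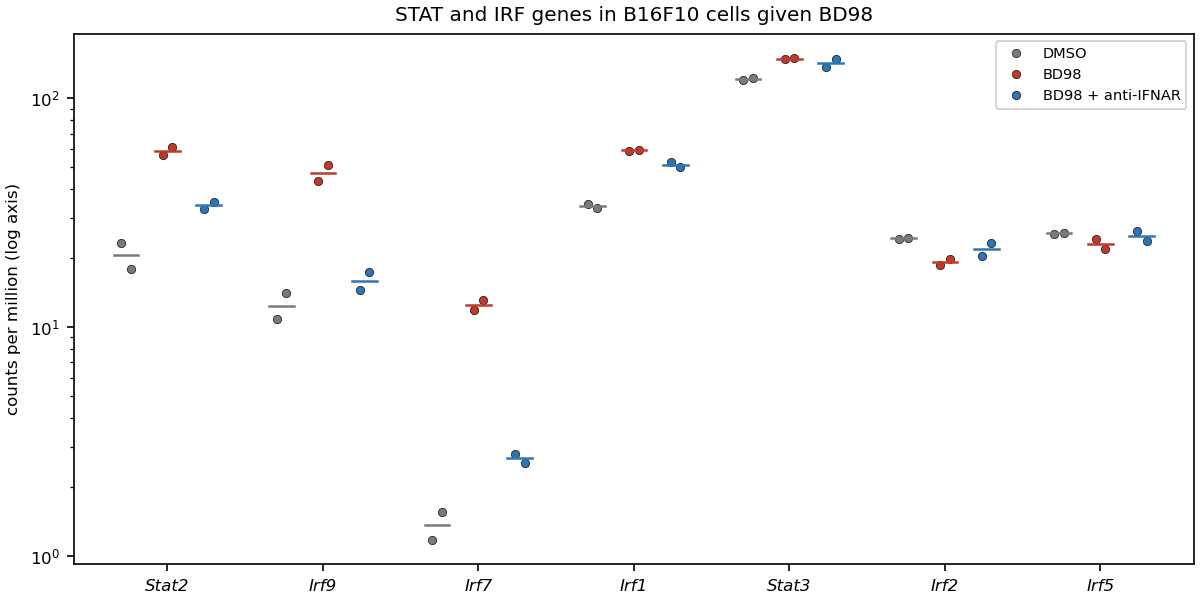
CPM on a log axis (y axis) of the 7 factors in sgScramble B16F10 cells given DMSO, BD98 or BD98 with anti-IFNAR; points are libraries and lines are means of 2. Irf7 goes from 1.17 and 1.55 to 11.8 and 13.1 with BD98 and to 2.77 and 2.55 with both agents. Irf1 goes from 34.5 and 33 to 59.0 and 59.3 with BD98 and to 52.4 and 49.9 with both agents.

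The ISRE-type targets moved with these factors: with BD98, 28 of 29 tested rose and 1 fell (median 2.21), and with added anti-IFNAR 28 of 29 fell relative to BD98 (median -1.51). Ifit1, an antiviral effector, rose by 3.46 and Isg15 by 3.08 with BD98. Of 23 tested GAS and Irf1 type targets, 20 rose and 2 fell with BD98 (median 1.40), and 15 fell and 0 rose with added anti-IFNAR (median -0.71). Of 12 receptors and kinases upstream of STATs, 1 rose and 8 fell with BD98 (median -0.39), among them Ifnar1, a subunit of the type I interferon receptor (-0.41), Ifngr2, a subunit of the IFNγ receptor (-0.51), and Jak1 (-0.40). Of 10 tested receptors, kinases and adaptors upstream of Irf7, 6 rose and 2 fell, with Tlr3, a sensor of double-stranded RNA, up by 1.26 and Ikbke, a kinase of IRF proteins, down (-0.73). Melanocyte markers fell in the same libraries, 10 of 10, with a summed log2 CPM of 15.15 to 15.16 in DMSO and 13.44 to 13.54 with BD98, and their part in the values above was not tested.

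The IFNγ table was made to compare the response to IFNγ with and without Arid1a. Irf1, Irf9, Stat2, Stat3 and, by less, Irf2 separated its libraries by the guide label. Irf2 was 9.46 to 9.56 in the libraries labelled sgScramble and 9.69 to 9.89 in those labelled sgArid1a. Irf1, a direct IFNγ target, was 9.81 in both libraries labelled sgScramble with PBS, 10.13 and 10.07 in those labelled sgScramble with IFN gamma, 12.53 and 12.34 in those labelled sgArid1a with PBS, and 13.04 and 12.97 in those labelled sgArid1a with IFN gamma. The 4 libraries labelled sgArid1a were thus above the 4 labelled sgScramble, whichever treatment the label named, while Arid1a itself was lower in the libraries labelled IFN gamma. Whether the labels of this table are right was not tested, and every direction below is that of the labels.

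Under the PBS labels, 6 of 7 factors were higher with sgArid1a, against 2.37% of 12357 genes, and 0 lower, against 0.348% (689 genes were lower at an unadjusted p under 0.05 in limma). Centring moved the share of calls that were higher from 87.2% to 75.9%. Irf1 was higher by 2.63 log2 (6.17-fold, the sixth smallest p), Irf9 by 1.53 (8.52 and 8.55 against 10.09 and 10.04), Stat2 by 0.94 (9.08 and 9.05 against 10.11 and 9.91) and Stat3 by 0.46 (11.70 and 11.67 against 12.18 and 12.12). None of these 4 pairs overlapped. Irf2 (0.23, adjusted p = 0.0222) and Irf7 (0.19, adjusted p = 0.0383) were higher by less. The call of Irf2 was lost without the second library of either group (adjusted p from 0.306 to 0.324) and that of Irf7 without 1 of 3 libraries, both of sgScramble and the first of sgArid1a (from 0.104 to 0.427), and after centring (0.0619). In the authors' deposited table the Irf7 difference was 1.80 log2 (adjusted p = 5.59e-06). Of the 30 tested ISRE-type targets 28 were higher (median 0.53), and of the 25 tested GAS and Irf1 type targets 24 (median 2.16).

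Within the libraries labelled sgScramble, those labelled IFN gamma had higher Irf1 (0.29), Irf9 (0.18, adjusted p = 0.0103) and Irf7 (0.13, adjusted p = 0.0465), 3 of 7 against 15.7% of genes, and lower Stat3 (-0.28), 1 of 7 against 19.3%. The count of 1 of 7 lower is no more than the share over all genes. The calls of Irf9 and Irf7 there depended on single libraries (adjusted p from 0.0781 to 0.0936 and from 0.0681 to 0.25 without 1 of them). Stat3 was 11.39 and 11.42 against 11.70 and 11.67, and Stat2 was 9.10 and 9.03 against 9.08 and 9.05. Stat2 thus overlapped between the treatment labels while Stat3 did not. Within the libraries labelled sgArid1a, 4 of 7 were higher with the IFN gamma label, against 20.9% of genes, and 0 lower, against 21.3% (3003 genes were lower at an unadjusted p under 0.05 in limma). These were Stat2 (0.67, at 10.70 and 10.65), Irf7 (0.61, at 6.53 and 6.42 against 5.92 and 5.81), Irf1 (0.57) and Irf9 (0.51, at 10.55 and 10.59). In the authors' deposited table Irf7 was higher with the IFN gamma label by 2.10 log2 under sgArid1a (adjusted p = 1.02e-32) and 1.39 under sgScramble (0.0011). Of the 30 tested ISRE-type targets, 8 rose under the sgScramble label and 30 under the sgArid1a label.

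Under the IFN gamma labels, 6 of 7 factors were higher with sgArid1a, against 4.03% of genes, and 0 lower, against 2.7% (1129 genes were lower at an unadjusted p under 0.05 in limma). The differences were 2.90 for Irf1, 1.85 for Irf9, 1.61 for Stat2, 0.73 for Stat3, 0.67 for Irf7 and 0.37 for Irf2. Low values are drawn together on this scale, and the authors' deposited table gives Irf7 a difference of 2.52 log2 (adjusted p = 2.11e-35). Centring moved the share of calls that were higher from 59.9% to 43.9%. The interaction, which asks whether the treatment label acts differently under the 2 guide labels, was called for 4 of 7 factors, against 0.696% of genes in the same direction and 0.186% in the other: Stat2 (0.66), Irf7 (0.49), Irf9 (0.33, adjusted p = 0.0395) and Stat3 (0.27, adjusted p = 0.0311). For Irf1 it was 0.28 (adjusted p = 0.135). The interaction of Stat3 was lost without any 1 of 6 of the 8 libraries (adjusted p from 0.0527 to 0.249) and that of Irf9 without any 1 of 7 (from 0.0908 to 0.228), while that of Irf1 was called without 1 of 3 libraries (from 0.0148 to 0.0418). Irf5 was 9.36 to 9.54 in all 8 libraries and was not called in any comparison of this table.

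**Figure D5:**
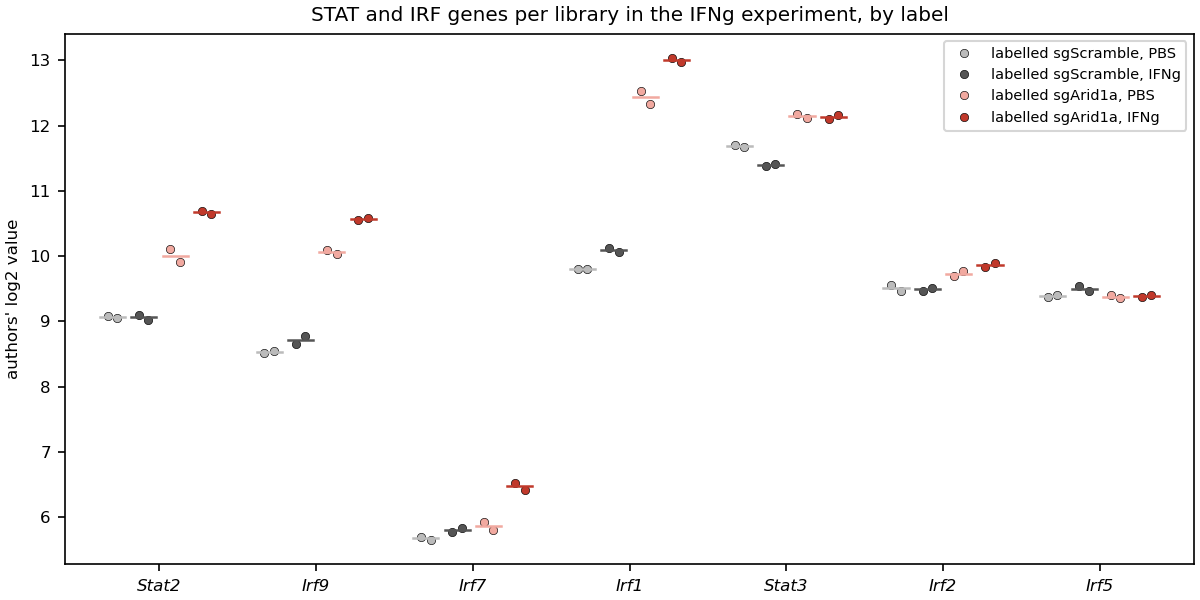
Authors' log2 value (y axis) of the 7 factors in each of the 8 libraries of the IFNγ table, by label; points are libraries and lines are means of 2. Irf1 and Irf9 separate the libraries by guide label (Irf1 9.81 to 10.13 with sgScramble and 12.34 to 13.04 with sgArid1a), and Irf5 does not.

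The likeness of the patterns was described by Pearson's r over the 42 libraries, with each table's mean removed, among 10137 genes. Libraries of a table share its normalization and treatments, and the 4 untreated libraries that are in 2 tables were used once. Stat2 and Irf9 had r = 0.92 with each other (0.86 over the 34 libraries outside the IFNγ table). Irf7 had 0.80 with both (0.92 with Irf9 and 0.90 with Stat2 over the 34). Irf1 had 0.82 with Irf9 (0.65 over the 34), and Irf2 and Irf5 had 0.49 with each other (0.67). Irf5 and Irf9 had -0.13 (-0.08). Stat2, Irf9 and Irf7 thus formed the closest trio outside the IFNγ table, and Irf5 and Irf2 stood apart from them. Spread was not scaled between tables, and BD98 values entered as log2 of CPM plus 1 rather than as the authors' log2 values. Irf7 had group means there of 1.23 (DMSO), 3.75 (BD98) and 1.87 (both agents), its widest range in any table. That experiment thus weighs heavily in these r, and no r was computed without it.

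The genes most like Stat2 over the 42 libraries were Parp14 (0.96), Parp12 (0.95) and Gbp3 (0.95), those most like Irf9 were Bst2 (0.95), Xaf1 (0.95) and Parp9 (0.94), and those most like Irf7 were Mx2 (0.95) and Isg15 (0.94). Irf1 was most like Irgm1 (0.98), Erap1 (0.98), Gbp2 (0.97) and Tap1 (0.97), which are GTPases and antigen-processing genes induced by IFNγ. Outside the IFNγ table its nearest gene was Slc39a7, a zinc transporter (0.94), ahead of Tap1 and Sec61a1, a subunit of the translocon (both 0.91), so the neighbours of Irf1 depended on that table. For the other three the highest values were lower: Irgm2 for Stat3 (0.88), Ankhd1 for Irf2 (0.82) and Tial1 for Irf5 (0.78). Outside the IFNγ table these were Gatsl2 for Stat3 (0.81), Ankhd1 for Irf2 (0.87) and Fchsd2 for Irf5 (0.84), so the nearest genes of Stat3 and Irf5 also depended on that table. The nearest gene changed as well for Stat2 (to Parp12, 0.94), Irf9 (to Trim25, 0.96) and Irf7 (to Xaf1, 0.97).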

How the data were processed

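RNA of 46 mouse samples in 23 groups was sequenced with a TruSeq Stranded mRNA kit, per the labels' protocols; 42 libraries of the gene tables were used, and 4 total RNA libraries were not used here. The submitters' processing notes name STAR 2.5.3a, HOMER and GRCm38/mm10, and the HOMER commands in the headers state no strand option, and antisense reads that overlap a gene cannot be told from its own. The BD98 table holds raw counts per the file headers; in the other 7 the authors deposited normalized log2 values, which look like regularized logarithms from the values, with low counts drawn together. The authors' deposited log2 fold changes and p-values stand in the same tables and are named as theirs where used. The values of 10 other per-sample columns were not used. The design had allowed for counts or unlogged values, and limma was used where log2 values were found.

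The 7 factors and all gene lists were chosen with earlier results of these data known. The limma-trend model (limma 3.58.1) took all groups of a log2 table and genes with a mean of at least 4. Counts went through edgeR 4.0.16 (TMM, filterByExpr, quasi-likelihood test), with DESeq2 1.42.0 as the other tool, in R 4.3.3; standard errors of edgeR are those implied by its test. Benjamini-Hochberg adjustment covered all genes tested, and a call is an adjusted p under 0.05. Errors after ± are standard errors and intervals are 95% from the same fit. List genes named are those with the smallest p, and some genes that this rule picked are not reported here. Scripts were tested on simulated data. Depth was 8.7 to 38.8 M reads, and precision is limited by the 2 libraries per group and, for Irf7 in cultured B16F10 cells, by low counts. The columns of the sgArid1a/sgSting libraries give the group only.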

Additional observations from a re-analysis of the deposited data

Results flagged for a closer look

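In the IFNγ table, the difference between the libraries labelled IFN gamma and PBS depended on the guide label for 4 factors. This was a test of the difference itself in limma. The rise was larger under the sgArid1a label for Stat2 (by 0.66 log2), Irf7 (0.49) and Irf9 (0.33). For Stat3 the test gave 0.27, but there the change lay under the sgScramble label. Stat3 was lower with the IFN gamma label under sgScramble (-0.28) and was not called under sgArid1a (-0.01). Arid1a in the same libraries followed the treatment label and not the guide label, and its part in these values was not tested.

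In 4 of the 5 experiments with Arid1a loss the Stat3 libraries did not overlap between groups, and the differences had opposite signs: the libraries without Arid1a were higher in tumors (0.34 log2), in DMSO cultures (0.13) and in MEFs (0.06) and lower in untreated cultures (-0.08). The difference between these experiments was not tested. The value in tumors was called in limma and the other 3 were not (adjusted p = 0.397 in DMSO, 0.6 untreated and 0.51 in MEFs). In MC38 cells the groups overlapped (9.45 and 9.48 against 9.47 and 9.55). Groups of 2 libraries can fail to overlap without a difference, and the share of all genes that did so was not counted.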

How the results depend on the processing

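The 7 factors in 21 comparisons gave 147 results, of which 71 were called, and 1426 alternative values were computed; 0 values called in either fit were reversed in direction, while some small differences that were called in neither changed sign. Leaving out 1 library kept the side of the threshold in 535 of 616 values, with 68 calls lost and 13 gained. Over these, the number of factors called ran from 6 to 7 in tumors (6 with all libraries), 2 to 2 untreated (3), 0 to 7 in DMSO (2), 3 to 4 in MC38 cells (4) and 4 to 4 in MEFs (4). Against sgArid1a it ran from 0 to 1 with sgArid1a/sgCgas (3), 0 to 2 with sgArid1a/sgSting (2), 0 to 0 with anti-IFNAR (1) and 0 to 1 with ruxolitinib (1). Against sgScramble it ran from 1 to 3 with sgArid1a/sgCgas (2), 2 to 3 with sgArid1a/sgSting (3), 1 to 1 with anti-IFNAR (1) and 0 to 4 with ruxolitinib (1). It ran from 5 to 6 for BD98 (6), 3 to 3 for added anti-IFNAR (3) and 2 to 5 for both agents against DMSO (5). In the IFNγ table it ran from 4 to 5 under the PBS labels (6), 2 to 4 and 4 to 4 for treatment under sgScramble (4) and sgArid1a (4), 6 to 6 under the IFN gamma labels (6) and 2 to 5 for the interaction (4).

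Centring each library on its median gave 4 factors called for sgArid1a/sgCgas against sgScramble and 5 for sgArid1a/sgSting against sgScramble. A replicate block kept 130 of 133 results; Irf7 untreated and Irf1 with sgArid1a/sgCgas against sgArid1a lost their calls and Irf2 in MEFs gained one. The replicate numbers are not known to pair libraries, since correlations of same-numbered deviations ran from -0.51 to 0.69, and the Sting columns carry none. DESeq2 kept 19 of 21 results, with Irf2 with BD98 and Irf9 with both agents against DMSO not called, and its size factors in edgeR 21 of 21. No filter on low values kept 146 of 147 results and a stricter one 130 of 131. Without the intensity trend of limma 122 of 126 results were kept; Irf7 under the PBS labels, Irf7 for treatment under sgScramble and the interaction of Stat3 lost their calls, and Stat2 with sgArid1a/sgSting against sgScramble gained one. With fits on the compared libraries alone 95 of 98 were kept; Irf7 untreated lost its call, and Irf1 with sgArid1a/sgSting against sgArid1a and Irf2 for treatment under sgArid1a gained one. The normalization of the anti-IFNAR table for the untreated comparison, an alternative chosen after seeing the data, kept 7 of 7. Irf7 counts were low in cultured B16F10 cells, with 22 and 26 counts in the DMSO libraries of the BD98 experiment.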
